A study of Mus musculus with 12 samples.

Results

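CXC chemokines are small secreted proteins that draw leukocytes along a gradient. Transcripts of 10 members of the family were followed in mouse peritoneal macrophages: Cxcl1, Cxcl2, Cxcl3, Cxcl9, Cxcl10, Cxcl11, Cxcl13, Cxcl14, Cxcl16 and Pf4. They were chosen by name. A probe could be matched to 9 of the 10 by its transcript identifier, and 8 of them were bright enough in some group to be tested, among 20862 genes in all. No probe was matched to Cxcl11, which C57BL/6 mice are known to carry only in a form that makes no protein. Cxcl9 had 2 probes and lay below background with both on all 12 arrays. Cxcl3 passed through the emodin arrays alone, so its entry into the test already depended on its level there.

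The 12 arrays fall into 3 groups of 4. Macrophages in the first received IL4 at 10 ng/ml together with emodin, an anthraquinone found in rhubarb and related plants, at 50 µM. Those in the second received IL4 at 10 ng/ml alone, and those in the third, the control, received vehicle. The cells of all 3 groups came from the peritoneum of wild-type C57BL/6 mice aged 8 weeks, were freed of cells that did not adhere, and were kept in medium without serum before treatment. IL4 is the T helper 2 cytokine that drives alternative activation of macrophages, and the series title asks whether emodin acts on that activation. Treatment lasted 6 h by the sample descriptions and overnight by the treatment protocol. The sample labels name peritoneal macrophages, whereas the series' design text names white blood cells and PMN of the peripheral blood. It is not stated whether an array held RNA of 1 mouse or of several, so the p-values speak of the spread among these samples only, some of which could be technical.

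The chemokines fall into classes by the receptor they bind. Cxcl1, Cxcl2 and Cxcl3 carry the glutamate-leucine-arginine motif and recruit neutrophils through Cxcr2. Cxcl9, Cxcl10 and Cxcl11 are induced by interferons and recruit activated T cells and natural killer cells through Cxcr3. Cxcl13 guides B cells through Cxcr5, Cxcl16 is a membrane-bound ligand of Cxcr6 that can be shed, and Cxcl14 and Pf4 stand apart from these classes. In macrophages, the first 2 classes are classical products of inflammatory activation, under control of NF-kB and interferon regulatory factors.

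Signal lay well above background for 48.3% ± 0.962 of probes on IL4 + emodin arrays, 52.3% ± 0.995 on IL4 arrays and 50.2% ± 0.552 on control arrays (SD, n = 4 each). The 75th percentile of intensity, to which each array was scaled, was 488 ± 31.4 on IL4 + emodin arrays, 776 ± 24.6 on IL4 arrays and 730 ± 74.0 on control arrays (SD, n = 4 each). All 4 emodin arrays lay on a slide of their own, so the effect of the slide and that of emodin cannot be told apart. IL4 and control arrays shared the other slide but sat in different rows, so slide row and IL4 cannot be told apart either. Of 7 macrophage markers listed, 6 had a probe, and all 6 lay above background on every IL4 and control array, with Timd4 dim on some emodin arrays. Titles give each group the numbers 1 to 4, with numbers 1 and 2 labelled female and 3 and 4 labelled male. Both probes of Xist, which marks a second X chromosome, lay above background on all 12 arrays, and 5 probes of 4 Y-linked genes on none, the 6 arrays labelled male included. The labels of sex therefore go against the data. Between arrays labelled male and female limma called 0 of 20862 genes, with 1931 at an unadjusted p under 0.05, and no chemokine was called.

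Promoter sequences of Cxcl1, Cxcl2, Cxcl3 and Cxcl10, the 4 chemokines with the largest differences between the emodin and IL4 arrays, are shown because they hold the motifs described next. The windows run 5′ to 3′ from 250 bases before to 50 bases after the annotated start, from RefSeq on build GRCm38.p6. Matches to the NF-kB consensus and to the interferon-stimulated response element (GAAA, any 2 bases, GAAA), which do not overlap here, are in capitals, and all other bases are in lower case.
Cxcl1 (chr5:90890995-90891294, plus strand): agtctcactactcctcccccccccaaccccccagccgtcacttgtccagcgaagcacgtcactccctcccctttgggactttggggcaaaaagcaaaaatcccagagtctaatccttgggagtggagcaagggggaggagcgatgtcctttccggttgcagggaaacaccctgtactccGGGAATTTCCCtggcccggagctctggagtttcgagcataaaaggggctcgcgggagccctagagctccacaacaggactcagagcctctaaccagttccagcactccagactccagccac
Cxcl2 (chr5:90903649-90903948, plus strand): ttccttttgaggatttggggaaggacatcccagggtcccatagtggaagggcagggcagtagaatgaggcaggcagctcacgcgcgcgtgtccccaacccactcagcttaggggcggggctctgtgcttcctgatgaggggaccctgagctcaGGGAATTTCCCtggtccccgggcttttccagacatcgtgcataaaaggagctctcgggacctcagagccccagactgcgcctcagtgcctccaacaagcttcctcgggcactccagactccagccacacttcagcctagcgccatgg
Cxcl3 (chr5:90785851-90786150, plus strand): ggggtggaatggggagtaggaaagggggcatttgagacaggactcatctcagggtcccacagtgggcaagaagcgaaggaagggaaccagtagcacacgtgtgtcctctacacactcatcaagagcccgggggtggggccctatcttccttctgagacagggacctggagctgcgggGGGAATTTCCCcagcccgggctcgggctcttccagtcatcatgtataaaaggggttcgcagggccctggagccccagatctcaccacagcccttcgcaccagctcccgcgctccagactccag
Cxcl10 (chr5:92348840-92349139, minus strand): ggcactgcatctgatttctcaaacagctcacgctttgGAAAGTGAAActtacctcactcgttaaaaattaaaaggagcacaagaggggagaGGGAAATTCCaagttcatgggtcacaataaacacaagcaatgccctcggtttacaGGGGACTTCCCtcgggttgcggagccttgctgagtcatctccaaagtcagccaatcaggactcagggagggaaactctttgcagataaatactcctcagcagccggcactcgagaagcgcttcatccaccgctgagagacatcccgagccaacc

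Cxcl1, Cxcl2 and Cxcl3 each held the same NF-kB match, GGGAATTTCC on the given strand overlapped by its reverse-strand reading. Counted back from the start, its first base was at -71 in Cxcl1, -97 in Cxcl2 and -73 in Cxcl3. Cxcl10 held GGGAAATTCC from -159 and GGGGACTTCC from -104, the last overlapped by another match, and the response element GAAAGTGAAA from -213. RefSeq promoters were found for 8 of the 10 family members. Those of Cxcl9, Cxcl13, Cxcl14 and Pf4 held no NF-kB match in this window, and that of Cxcl14 held the response element GAAACAGAAA from -172. Among 32851 promoters of this length, both strands read, 8.46% held the NF-kB consensus and 3.44% the response element. The consensus of STAT6, the factor that IL4 activates (TTC, any 4 bases, GAA), was in none of the 8 windows and in 6.95% of all promoters. These are matches of letters, and no binding was measured here. By the RefSeq gene order, Pf4, Cxcl3, Cxcl15, Cxcl1 and Cxcl2 lie next to each other on chromosome 5, with Cxcl10 and Cxcl11 neighbours elsewhere on it. Cxcl14 lies on chromosome 13 and Cxcl16 on chromosome 11.

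Addition of emodin to IL4 was accompanied by higher transcript levels of most of the chemokines measured. Cxcl2, Cxcl1, Cxcl10, Cxcl3, Cxcl16 and Cxcl14 were higher than with IL4 alone, in that order of size (Cxcl14 was lower with spike-in scaling), while Cxcl13 and Pf4 were not called in either direction. Cxcl3 entered the test through its level on the emodin arrays and is left out of the counts here, as are the 1164 genes in all that were above background on all arrays of 1 group alone. Of the other 7 chemokines, 5 were called higher at an adjusted p below 0.05 and 0 lower, where 39.8% of the 19698 genes left after the same step ("genes like them" from here on) were called higher and 26.9% lower. Among all 20862 genes, 39.4% were called higher, 26.5% lower and 65.9% in either direction. The median log2 difference was 2.18 over the 7 and 0.16 over the genes like them. With IL4 alone against control, Cxcl10, Cxcl2, Cxcl16 and Cxcl14 fell, so that 4 of the 7 were called lower and 0 higher, where 8.67% of the genes like them were called lower and 8.64% higher (of all genes tested, 8.56% lower, 8.98% higher and 17.5% in either direction). That median was -0.69 over the 7 and -0.03 over the genes like them. Emodin with IL4 against control gave 4 of the 7 higher and 0 lower, beside 37.4% of the genes like them higher and 26.4% lower (of all genes tested, 37.3% higher, 25.6% lower and 62.9% in either direction), and a median of 1.17 over the 7 and 0.14 over the genes like them. These 3 comparisons share arrays with each other, and their values are given side by side for each gene below. In cultures such as these, a change in the make-up of the cells and a change of RNA per cell cannot be told apart.

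**Figure D1:**
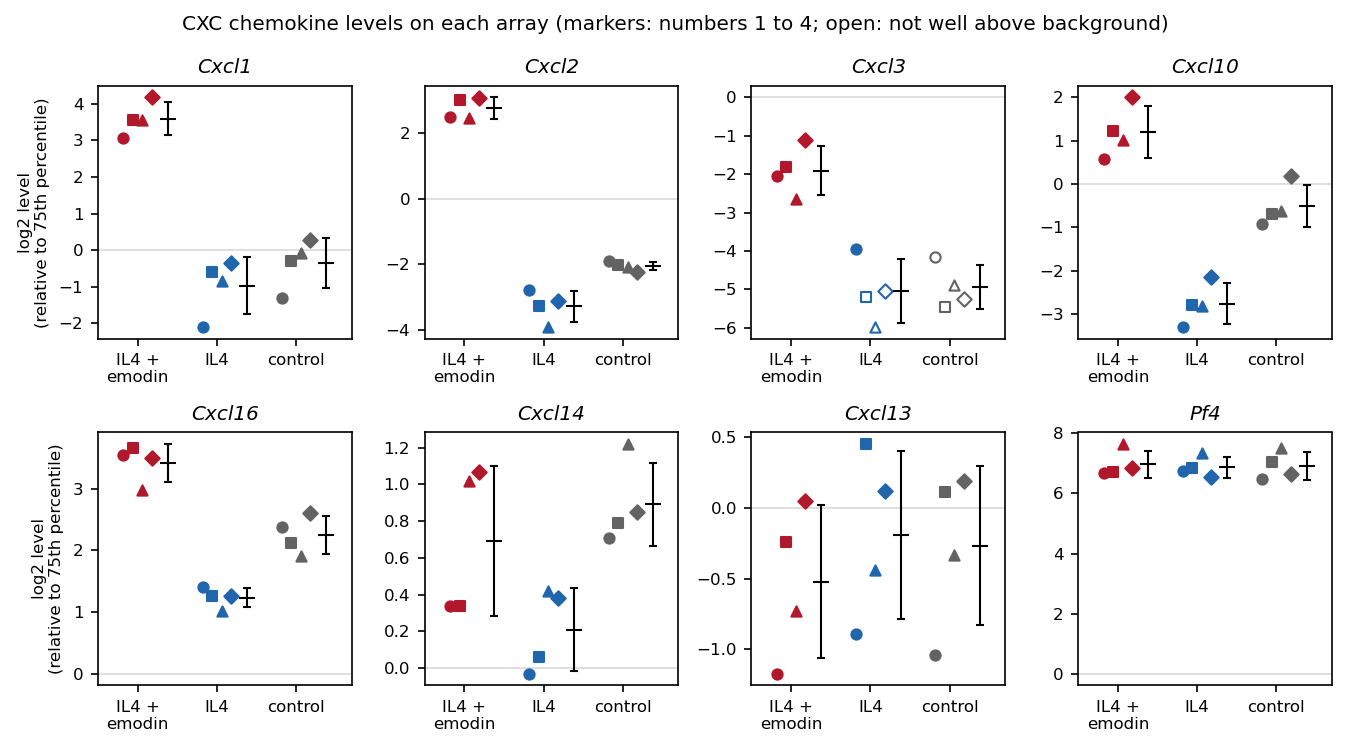
Log2 level of 8 CXC chemokines on each of the 12 arrays, relative to the array's 75th percentile, with 4 arrays each for IL4 + emodin, IL4 and control; marker shapes stand for the array numbers 1 to 4, open markers for spots not well above background, and bars for the mean ± SD. Cxcl1, Cxcl2, Cxcl3, Cxcl10 and Cxcl16 lie above both other groups on all 4 IL4 + emodin arrays, whereas Cxcl13 and Pf4 overlap in all 3 groups.

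Cxcl2, also called macrophage inflammatory protein 2, showed the widest separation. Its log2 level relative to the 75th percentile was 2.49, 3.00, 2.45 and 3.07 on the 4 IL4 + emodin arrays, -2.79, -3.27, -3.91 and -3.12 on the IL4 arrays, and -1.91, -2.02, -2.08 and -2.22 on the control arrays. No array of a group reached into another group, and the IL4 arrays were the lowest. Before scaling, the mean spot intensity was 3370 with IL4 + emodin, 83.7 with IL4 and 177 in controls. With IL4 + emodin, Cxcl2 was higher by 6.03 ± 0.22 on the log2 scale than with IL4 alone (SE, n = 4 per group; 65.3-fold; limma adjusted p = 1.79e-09). Against control it was higher by 4.82 ± 0.22 (28.1-fold; adjusted p = 7.02e-09). With IL4 alone it lay below control, at a log2 difference of -1.22 ± 0.22 (2.32-fold lower; adjusted p = 0.00209). The spread of Cxcl2 among control arrays, an SD of 0.13, was small beside each of these differences.

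Cxcl1, the mouse counterpart of the growth-related oncogene KC, gave 3.07, 3.56, 3.56 and 4.17 on the IL4 + emodin arrays, against -2.10, -0.59, -0.84 and -0.35 on the IL4 arrays and -1.31, -0.30, -0.09 and 0.27 on the control arrays. The emodin arrays lay apart from all others, and IL4 and control arrays overlapped. Its log2 difference was 4.56 ± 0.41 for IL4 + emodin over IL4 (23.6-fold; adjusted p = 1.52e-06) and 3.95 ± 0.41 over control (15.4-fold; adjusted p = 5.26e-06). Between IL4 and control the difference of -0.61 ± 0.41 did not pass the test (adjusted p = 0.353). With the array number as a block, the same -0.61 was called (limma adjusted p = 0.0162). That block was fitted with the emodin arrays included, although the numbers were taken to pair the IL4 and control arrays only. Its p-value therefore rests in part on a pairing that was not taken to hold. IL4 minus control lay between -0.79 and -0.29 at all 4 numbers.

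Cxcl3, the remaining neutrophil attractant of the cluster, was measurable mainly with emodin. Its log2 level was -2.04, -1.81, -2.65 and -1.11 on the IL4 + emodin arrays, all well above background. It was -3.96, -5.20, -5.98 and -5.05 on the IL4 arrays, of which number 1 was above background, and -4.16, -5.45, -4.88 and -5.25 on the control arrays, with none above background. Levels in the last 2 groups are therefore bounds rather than measurements, apart from that of IL4 number 1. Against IL4, with 1 of 4 arrays above background, the fitted log2 difference was 3.15 ± 0.43 (adjusted p = 4.96e-05), and against control the level was at least 6.4-fold higher by the background limit (adjusted p = 7.07e-05). Both p-values are for a gene that entered the test through its high group. The size depended on the background correction: with normexp the differences were 1.51 against IL4 and 1.47 against control, and with normexp then quantile scaling 1.11 and 1.22, those against control lying below that limit. IL4 and control did not differ detectably (-0.11 ± 0.43; adjusted p = 0.902), both near or below background.

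Neutrophils, which can be present in a peritoneal preparation, also make some of these chemokines. Of 8 neutrophil markers listed, 7 had a probe, 4 of them above background on all emodin arrays and 5 on all IL4 and all control arrays, and Ngp was below background on all 12. The summed linear level of the list was 36.6 to 59.0 on IL4 + emodin arrays, 19.2 to 30.3 on IL4 arrays and 26.7 to 39.8 on control arrays. Elane, the gene of neutrophil elastase, made up 51.6% to 89.2% of the sum on every array. Without Elane the sum was 5.59 to 8.30 on IL4 + emodin arrays, 7.16 to 9.84 on IL4 arrays and 8.12 to 14.2 on control arrays, and so was not highest with emodin. In that sum S100a8 was the brightest marker on every array. S100a8, a cytosolic protein of neutrophils, was called lower with IL4 + emodin than in controls (-0.74 on the log2 scale, adjusted p = 0.00438). So was Ltf, the gene of lactoferrin (adjusted p = 0.0393), while Elane (0.89, adjusted p = 0.007) and Camp (0.489, adjusted p = 0.00761) were called higher. Against IL4, Elane (1.26, adjusted p = 7e-04) and Camp (0.605, adjusted p = 0.00187) were called higher, and S100a8, S100a9 and Ltf were not called. The part of neutrophils in the levels of Cxcl1, Cxcl2 and Cxcl3 was not tested.

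**Figure D2:**
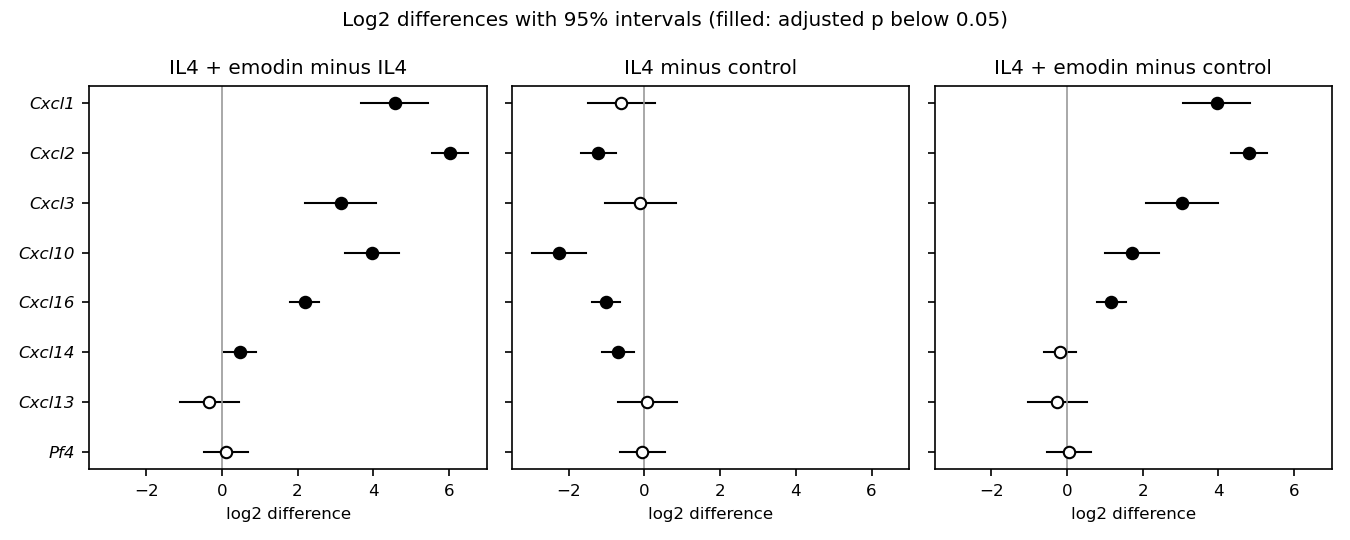
Log2 difference of each chemokine in the 3 comparisons, with the limma 95% interval as a line; filled points have an adjusted p below 0.05. Cxcl2 and Cxcl1 lie farthest right with IL4 + emodin over IL4, at 6.03 and 4.56, while Cxcl10, Cxcl2, Cxcl16 and Cxcl14 lie left of 0 with IL4 over control. The points of Cxcl3 rest on control arrays that were all below background, and on IL4 arrays of which 1 was above it.

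Cxcl10, the interferon-induced protein of 10 kDa, took 3 separate levels. It gave 0.57, 1.22, 1.01 and 2.00 on the IL4 + emodin arrays, against -3.30, -2.80, -2.81 and -2.14 with IL4 and -0.93, -0.68, -0.61 and 0.18 in controls. No array of a group reached into another, with control between the others. The log2 difference of IL4 + emodin over IL4 was 3.96 ± 0.33 (15.6-fold; adjusted p = 8.49e-07), and within the 4 array numbers it varied only from 3.82 to 4.14. IL4 alone lay below control by a log2 difference of -2.25 ± 0.33 (adjusted p = 0.000501), and IL4 + emodin above control by 1.71 ± 0.33 (3.27-fold; adjusted p = 0.000726). The last call was lost with spike-in scaling, where the difference was 0.73 (adjusted p = 0.0673).

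Cxcl9, the other ligand of Cxcr3 with a probe, was not well above background on any array. Its brighter probe averaged -5.40 with IL4 + emodin, -6.27 with IL4 and -6.41 in controls on the log2 scale. The transcript was not detectable at the signal of these arrays, and no fold is given.

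Cxcl16, the ligand of Cxcr6 that also takes up oxidized lipoprotein at the macrophage surface, was ordered like Cxcl10 but over a narrower range. Its log2 level was 3.54, 3.66, 2.97 and 3.50 with IL4 + emodin, 1.40, 1.25, 1.02 and 1.26 with IL4, and 2.37, 2.11, 1.91 and 2.61 in controls. The 3 groups did not overlap. IL4 + emodin lay above IL4 by 2.19 ± 0.17 (4.55-fold; adjusted p = 6.04e-07) and above control by 1.17 ± 0.17 (2.25-fold; adjusted p = 0.000102), and IL4 below control by a log2 difference of -1.01 ± 0.17 (2.02-fold lower; adjusted p = 0.00158). With spike-in scaling the difference from control was 0.19 and no longer called (adjusted p = 0.42), while that from IL4 was 1.11 and called (adjusted p = 0.000291).

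Cxcl14, an early diverged chemokine expressed in many resting tissues, differed far less. It gave 0.34, 0.34, 1.02 and 1.07 with IL4 + emodin, -0.03, 0.06, 0.42 and 0.38 with IL4, and 0.71, 0.79, 1.22 and 0.85 in controls. In all 3 groups numbers 1 and 2 were lower than numbers 3 and 4, and the emodin and IL4 groups overlapped. The fall with IL4 against control was -0.69 ± 0.19 (1.61-fold lower; adjusted p = 0.0291), and the call was lost with spike-in scaling (adjusted p = 0.0898) and on leaving out control 2, 3 or 4 or IL4 1 or 2 (adjusted p from 0.051 to 0.0829). IL4 + emodin exceeded IL4 by 0.49 ± 0.19 (1.40-fold; adjusted p = 0.0426), a call lost without IL4 1 or 2 or emodin 3 or 4 (adjusted p from 0.099 to 0.123), with no filter on dim probes (0.0552) and with the 2 groups fitted alone (0.0629), and a sign that turned with spike-in scaling, to -0.59 (adjusted p = 0.0164). IL4 + emodin and control were not distinguished, with a difference of -0.20 and a 95% interval of -0.62 to 0.22 (adjusted p = 0.385), but with spike-in scaling Cxcl14 was called lower (-1.18; adjusted p = 0.000132).

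Cxcl13, which peritoneal macrophages are known to make for the recruitment of B cells to the body cavity, was called in none of the 3 comparisons. Its log2 level was -1.17, -0.24, -0.73 and 0.05 with IL4 + emodin, -0.89, 0.45, -0.44 and 0.12 with IL4, and -1.04, 0.11, -0.33 and 0.19 in controls. The 3 groups covered the same range. The difference of IL4 + emodin from IL4 was -0.34, with a 95% interval of -1.11 to 0.44 (adjusted p = 0.423). Summed levels of 5 B cell markers were 0.354 to 0.548 on IL4 + emodin arrays, 1.15 to 2.17 on IL4 arrays and 1.03 to 2.37 on control arrays, with Pax5 below background on all 12.

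Pf4, platelet factor 4, known from platelet granules and also made by macrophages, was bright on every array. Its log2 level was 6.69, 6.72, 7.65 and 6.84 with IL4 + emodin, 6.74, 6.86, 7.34 and 6.54 with IL4, and 6.48, 7.05, 7.51 and 6.65 in controls. Number 3 was the highest of each group, and the groups overlapped throughout. The difference between IL4 + emodin and IL4 was 0.11 ± 0.27 (95% interval -0.48 to 0.69; adjusted p = 0.743) and that between IL4 and control -0.05 ± 0.27 (adjusted p = 0.926). Of 9 platelet and megakaryocyte markers, Itga2b, Gp9, Gp1ba, Gp6 and Ppbp were below background on all 12 arrays, and Tubb1 on all 4 emodin arrays. The summed level of the list was 2.22 to 3.42 with IL4 + emodin, 1.06 to 1.18 with IL4 and 1.05 to 1.44 in controls, of which Treml1 alone made up 73.6% to 89% on every array. Without Treml1 it was 0.335 to 0.561 with IL4 + emodin, 0.214 to 0.233 with IL4 and 0.276 to 0.281 in controls. Of the markers left, only Gp1bb lay above background on all 12 arrays, and the others added signal mostly below background.

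**Figure D3:**
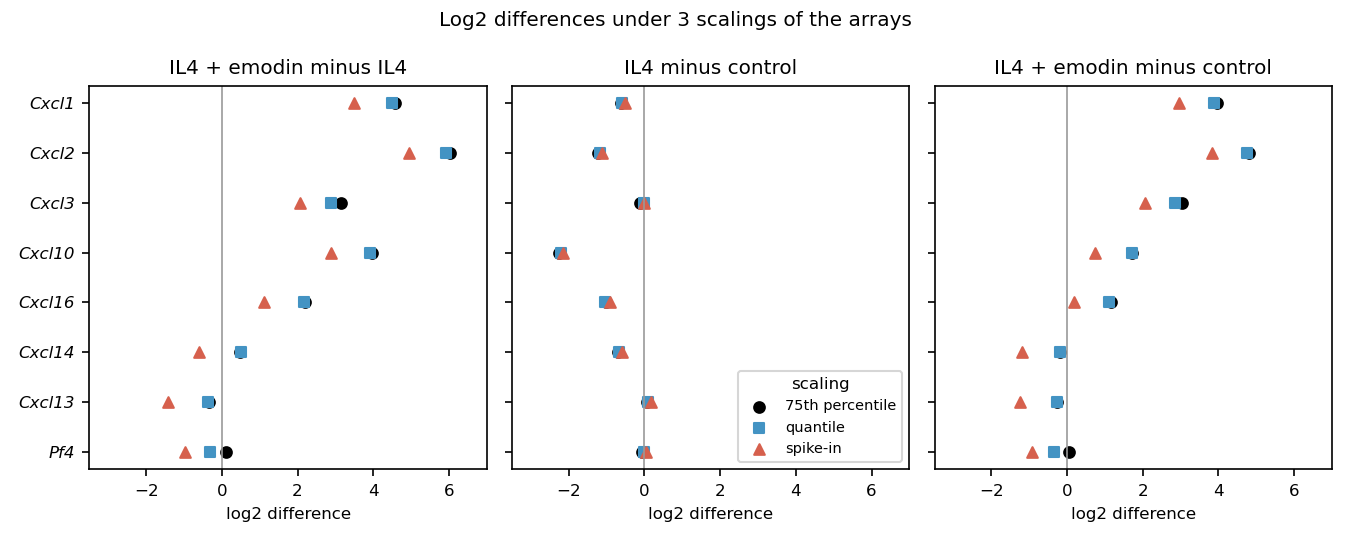
Log2 difference of each chemokine under 3 scalings of the arrays: 75th percentile, quantile, and the spike-in probes. With spike-in scaling all points of the IL4 + emodin comparisons move left, Cxcl14 and Pf4 against IL4 to -0.59 and -0.97, while Cxcl1 and Cxcl2 stay right of 0 in both, at 2.97 or above.

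These directions are relative to each array's 75th percentile, and the emodin arrays react to that choice. Relative to 7 spike-in control probes, the median difference of all genes was -0.91 for IL4 + emodin over IL4, against 0.17 with the 75th percentile and 0.02 with quantile scaling. Under spike-in scaling 80.5% of all genes were called lower and 3.53% higher in that comparison. Cxcl2 (4.95), Cxcl1 (3.49), Cxcl10 (2.89) and Cxcl16 (1.11) were among those higher, as was Cxcl3 (2.07, against IL4 arrays of which 1 was above background). Cxcl13 (-1.41), Pf4 (-0.97) and Cxcl14 (-0.59) were called lower, the last of these by less than the median gene. Against control, Cxcl1 and Cxcl2 stayed higher with spike-in scaling, at 2.97 and 3.83, where 4.02% of all genes were called higher and 77.1% lower. IL4 against control moved little, with a median of 0.07 under spike-in scaling and -0.03 without it, and Cxcl2, Cxcl10 and Cxcl16 were still called lower, as were 3.42% of all genes.

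Array number ran through several chemokines alike in all groups. Cxcl1, Cxcl10 and Cxcl13 were lowest on number 1 in each group, and Cxcl1 and Cxcl10 highest on number 4. Cxcl5, a further neutrophil attractant next to this cluster, gave -0.39, 1.63, 1.09 and 1.94 with IL4 + emodin, -0.06, 1.36, 0.92 and 1.26 with IL4, and 0.34, 1.85, 2.07 and 2.53 in controls, again with number 1 lowest. It was called in no comparison with the 75th percentile, but lower with IL4 + emodin than in controls under spike-in scaling (-1.61; adjusted p = 0.0113; -0.63 with the 75th percentile). IL4 against control was called lower once the number entered as a block (-0.83; limma adjusted p = 0.00813), and not without it (adjusted p = 0.36). The emodin arrays, whose numbers were not taken to pair with the others, were part of that block fit. Cxcl12, the homeostatic ligand of Cxcr4 made by stromal cells, was lowest on number 1 of each group as well. Its brighter probe gave -3.91, -2.56, -2.77 and -2.09 with IL4 + emodin, -2.47, -1.45, -1.21 and -0.73 with IL4, and -4.09, -2.39, -2.31 and -2.07 in controls. It was called lower with IL4 + emodin than with IL4 (-1.37 ± 0.51; adjusted p = 0.0329), a call lost without IL4 2, 3 or 4 or emodin 1 or 3, and its other probe gave -0.82 (adjusted p = 0.215). The brighter probe passed the filter through the IL4 arrays alone, with 3 of 4 arrays above background in each other group. IL4 over control was 1.25 ± 0.51 for this probe of Cxcl12 (limma adjusted p = 0.121), called with the block over all 12 arrays (adjusted p = 9.82e-05). The other probe gave 0.61 without the block and was not called (limma adjusted p = 0.517).

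The summed level of 7 mesothelial and fibroblast markers followed the same numbers. For numbers 1 to 4 it was 24.5, 50.4, 51.0 and 106 with IL4 + emodin, 18.8, 46.1, 51.0 and 91.0 with IL4, and 16.9, 40.3, 39.6 and 74.3 in controls. Number 1 was lowest and number 4 highest in each group, as for Cxcl1 and Cxcl10. The B cell, mast cell and dendritic cell lists were also lowest on number 1 in each group, so the low number 1 was not particular to this list. The part of any of these cells in the levels of Cxcl1, Cxcl5, Cxcl10, Cxcl12 and Cxcl13 was not tested. Number is also the column of the array on its slide, and the 2 cannot be told apart.

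**Figure D4:**
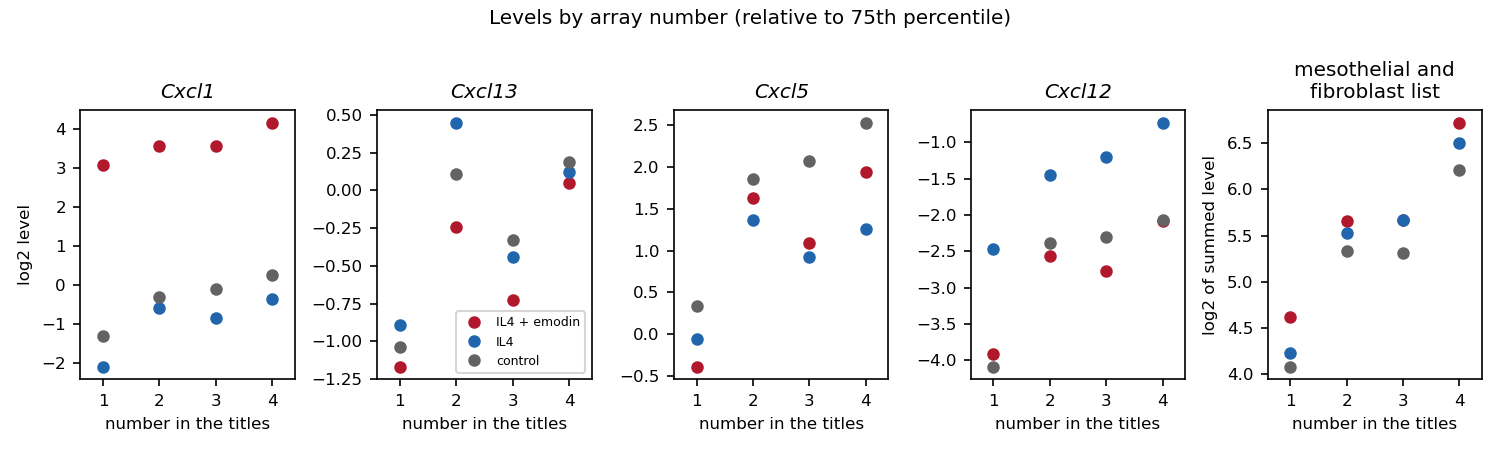
Log2 level of Cxcl1, Cxcl13, Cxcl5 and Cxcl12, and log2 of the summed level of 7 mesothelial and fibroblast markers, by the array number given in the titles, for IL4 + emodin, IL4 and control arrays (1 point per array). In all 5 panels number 1 is the lowest of each group. The B cell, mast cell and dendritic cell lists, not drawn, were also lowest on number 1 in each group.

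The receptors of these chemokines were partly measurable. Of 9 receptors and decoys, 4 were tested and Cxcr2, Cxcr5, Ackr1, Ackr2 and Ackr3 stayed below the filter. With IL4 + emodin, 3 of the 4 were higher and 1 lower than with IL4, where 39.4% of all genes were higher and 26.5% lower. Cxcr1, a receptor of neutrophil attractants, differed by 3.66 ± 0.24 (adjusted p = 1.32e-07), Cxcr6, the receptor of Cxcl16, by 1.85 ± 0.25 (adjusted p = 3.87e-05) and Cxcr4, the receptor of Cxcl12, by 1.48 ± 0.11 (adjusted p = 3.14e-07), and all 3 were still called higher with spike-in scaling. Cxcr3, the receptor of Cxcl9 and Cxcl10, lay below background on all 4 IL4 + emodin arrays and was at least 1.75-fold lower than with IL4 (adjusted p = 0.00356) and at least 4.85-fold lower than in controls (adjusted p = 2.15e-06). With IL4 alone, Cxcr1 and Cxcr3 lay below control, at log2 differences of -1.82 ± 0.24 (adjusted p = 0.000254) and -1.47 ± 0.22 (adjusted p = 0.000548). Cxcl10 and the receptor of its class therefore differed in opposite directions between IL4 + emodin and IL4.

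NF-kB subunits and inhibitors differed in both directions. Of 11 tested, 5 were called higher and 3 lower with IL4 + emodin than with IL4, shares near the 39.4% and 26.5% of all genes, and their median log2 difference was 0. Nfkbiz, an inducible co-factor of NF-kB, was higher by 1.80 ± 0.22 (adjusted p = 1.73e-05), and Tnfaip3 and Nfkbia, feedback inhibitors, by 1.18 ± 0.12 (adjusted p = 3.3e-06) and 1.06 ± 0.09 (adjusted p = 8.73e-07). Nfkbie, another inhibitor, was lower, with -1.39 ± 0.12 (adjusted p = 1.32e-06). With spike-in scaling, Nfkbiz was the 1 gene of the list called higher (0.72) and 7 were called lower, beside 3.53% and 80.5% of all genes. Nfkbia turned to -0.02 with that scaling. Against control, 6 were higher and 1 lower with IL4 + emodin, the lower being Nfkbie (-2.12 ± 0.12; adjusted p = 4.35e-08), where 37.3% of all genes were higher and 25.6% lower. With spike-in scaling that split turned to 1 higher, Tnfaip3 (0.46), and 6 lower, with Relb at -0.43, beside 4.02% and 77.1% of all genes. IL4 against control gave 3 higher and 2 lower (8.98% and 8.56% of all genes), among them Rel (1.15 ± 0.17; adjusted p = 0.000505; above background on 2 of 4 control arrays) and Nfkb1 (0.74 ± 0.12; adjusted p = 0.00116).

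Interferon signalling, the pathway behind Cxcl9, Cxcl10 and Cxcl11, had 14 of 15 listed genes tested, with Ifng below the filter. Ifnb1 entered the test through the emodin arrays alone and is left out of the counts. Of the other 13, 2 were higher and 7 lower with IL4 + emodin than with IL4, where 39.8% of genes above background in more than 1 group were higher and 26.9% lower. Ifnar1, among the 7 lower (-0.417; limma adjusted p = 0.0469), was called higher with its 2 other probes (0.316 and 0.375; adjusted p = 0.014 and 0.0103). With spike-in scaling 11 of the 13 were lower, beside 80.5% of all genes. Ifnb1 was the only listed gene called higher there, and it had entered the test through that high group. Ifnb1, the gene of interferon beta, was above background on all 4 IL4 + emodin arrays and on none of the others, at least 3.53-fold higher than with IL4 (adjusted p = 1.04e-08) and at least 3.29-fold higher than in controls (adjusted p = 1.68e-08). Genes that relay the interferon signal were lower than with IL4, including the kinase gene Jak2 (-2.00 ± 0.09; adjusted p = 7.86e-09) and Stat2 (-1.47 ± 0.09; adjusted p = 7.55e-08). IL4 over control gave 5 of the 13 higher and 1 lower (8.64% and 8.67% of genes like them), with Jak2 (1.63 ± 0.09; adjusted p = 2.53e-07) and Irf1, a transcription factor gene (1.05 ± 0.11; adjusted p = 3.63e-05), at the top. IL4 + emodin over control gave 5 of the 13 higher and 4 lower (37.4% and 26.4% of genes like them). With spike-in scaling Ifnar2 (0.30) was the only gene of the 13 called higher than in controls and 10 were lower, beside 4.02% and 77.1% of all genes.

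Other listed genes act on the stability of chemokine transcripts and the release of the proteins. Of 8 genes of mRNA decay and stability, 3 were higher and 1 lower with IL4 + emodin than with IL4, beside 39.4% and 26.5% of all genes, the largest being Hnrnpd at 0.77 ± 0.11 (adjusted p = 5.77e-05; -0.31 with spike-in scaling). With that scaling 0 were called higher and 6 lower, beside 3.53% and 80.5% of all genes. Without it, the 1 lower gene was Elavl1 (-0.345; limma adjusted p = 0.00133), but its other probe was called higher (0.39; adjusted p = 0.0419). Khsrp, among the 3 higher, was not called with its other probe (0.066; adjusted p = 0.808). IL4 over control gave 3 higher and 2 lower (8.98% and 8.56% of all genes), with Zfp36l1 at 1.05 ± 0.13 (adjusted p = 0.000112) and Zfp36, the gene of tristetraprolin, at 0.95 ± 0.20 (adjusted p = 0.00528). Elavl1, called higher there, and Khsrp, called lower, were not called with their other probes (limma adjusted p = 0.297 and 0.896). Against control, 5 were higher and 0 lower with IL4 + emodin (37.3% and 25.6% of all genes), Zfp36l1 by 1.24 ± 0.13 (adjusted p = 4.72e-06) and Zfp36 by 1.20 ± 0.20 (adjusted p = 0.000206), both without a call under spike-in scaling (0.25 and 0.22). Under that scaling 0 were higher and 4 lower against control, beside 4.02% and 77.1% of all genes. The 4 were Khsrp (-0.72), Elavl1 (-1.07), Cnot1 (-1.10) and Zfp36l2 (-1.02), each with its brightest probe. Without that scaling, the other probe of Elavl1 was called higher than in controls (0.648; limma adjusted p = 0.00307). Khsrp, among the 5 higher, was not called with its other probe (0.005; adjusted p = 0.985). Of 6 proteases that shed or trim CXC chemokines, 4 were tested. Adam10, the main sheddase of Cxcl16, was lower with IL4 + emodin than with IL4 (-0.70 ± 0.07; adjusted p = 2.86e-06) and higher with IL4 than in controls (0.38 ± 0.07; adjusted p = 0.00197), opposite to Cxcl16 itself in both. Adam17 was higher with IL4 + emodin than with IL4 (0.88 ± 0.09; adjusted p = 5.81e-06) and turned to -0.20 with spike-in scaling.

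Other genes had levels much like those of Cxcl2 and Cxcl10. Over the 12 arrays, which fall into 3 groups, the 3 named genes outside the family closest to Cxcl2 among 13187 were Nedd4l (Pearson r = 0.995), Map3k20 (0.995) and Ik (0.993). Those closest to Cxcl10 were Basp1 (0.991), Slc44a1 (0.989) and Ccdc93 (0.987). These likenesses rest largely on the differences between the groups and carry no test.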

How the data were processed

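The 10 chemokines and all gene lists were chosen with earlier results of these data known. RNA of 12 samples was labelled with Cy3 and read on 1-colour Agilent arrays. The scanner files as deposited give spot intensity, which Agilent Feature Extraction 10.7.3.1 had background-subtracted within each array (per the file headers). The authors' deposited table of log2 values could be rebuilt from those intensities (r = 1 on every array) by quantile normalization and centring on each probe's median. Its column medians lay between -0.008 and 0.014, and it served as an alternative.

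Control spots and outlier spots (0.231%) were left out. Values are log2 intensity minus each array's 75th percentile, and all directions are relative to it. Symbols came from matching transcript identifiers to the RefSeq gene table, for 27509 of 55681 probes. A probe was kept if some group had it well above background on all 4 arrays (27705 probes), and the brightest probe stood for each gene (20862 genes). Where a whole group was below background, a fold is written "at least" and was taken from the lowest signal well above background on each array, or the probe's own where higher. Levels of different probes were not compared.

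Group means of the 3 groups were fitted over all 12 arrays with limma (version 3.58.1, R 4.3.3; 9 residual degrees of freedom). Tests were two-sided, with Benjamini-Hochberg adjustment across the 20862 genes and a threshold of 0.05. The fit was tested on simulated data. Precision is limited by 4 arrays per group. The text names the 10 chemokines, up to 4 called members of each list with the largest change, and the 3 genes most like Cxcl2 and Cxcl10. Promoters were searched with Python 3.11.15, and figures drawn with matplotlib 3.10.9.

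The labels do not tie array numbers to shared animals. For IL4 against control, deviations of same-numbered arrays from their group means correlated at 0.524, 0.311, 0.334 and 0.437, so the numbers were taken to pair the arrays there. Alternatives were other scalings, normexp background correction (offset 50, on median spot signals, since mean signals were not in the files used), the deposited table, no filter, the mean of a gene's probes, the compared groups alone, the number as a block, labelled sex as a covariate, and leaving out each array. Counts without the genes that were above background on all arrays of 1 group alone were added after seeing the data.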

Additional observations from a re-analysis of the deposited data

Results flagged for a closer look

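Each of 57 sets of 4 arrays, a probe of a CXC chemokine or a measure of the arrays within a group, was checked for an array far from the other 3, by the gap to its nearest neighbour as a share of the range. Sets above Dixon's 95% critical value are given here, and chance alone gives about 5% of sets. There were 5 such cases. Pf4 was high on number 3 of the IL4 + emodin group (share 0.85), at 7.65 against 6.69 to 6.84 on the other 3. Number 3 was also the highest for Pf4 with IL4, at 7.34, and in controls, at 7.51.

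Both probes of Cxcl12 were low on a number 1 array. The brighter probe stood apart on control number 1 (share 0.842), at -4.09 against -2.39 to -2.07, and the other on IL4 + emodin number 1 (share 0.867). Number 1 also had the lowest sum of mesothelial and fibroblast markers in each group, as of B cell, mast cell and dendritic cell markers. The dimmer Cxcl9 probe was high on IL4 number 2 (share 0.845), at -4.94, without being well above background. The 75th percentile of intensity, to which arrays were scaled, was high on IL4 number 1 (share 0.905), at 813 against 761 to 766 on the other 3 IL4 arrays.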

How the results depend on the processing

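For the 8 tested chemokines with Cxcl5 and Cxcl12, 540 values were recomputed under other settings. Of these, 478 kept direction and side of the threshold, 20 lost a call, 12 gained a call and 30 changed sign. Cxcl1, Cxcl2, Cxcl10 and Cxcl16 kept their calls for IL4 + emodin over IL4 in all 18 settings each, as did Cxcl3, whose difference ranged from 1.11 (normexp then quantile) to 3.51. Spike-in scaling called 3 chemokines lower against IL4, namely Cxcl13 at -1.41, Pf4 at -0.97 and Cxcl14 at -0.59, beside 80.5% of all genes. Cxcl5 turned to -0.88 there without a call (limma adjusted p = 0.127). Against control spike-in scaling called Cxcl1 and Cxcl2 higher and 3 chemokines lower, with Pf4 at -0.93, beside 4.02% and 77.1% of all genes. Cxcl3 was also called higher there, but it had entered the test through its level on the emodin arrays. For IL4 over control Pf4 was 0.042 with that scaling. Pf4 was negative against IL4 with quantile scaling (-0.32), normexp then quantile (-0.33) and the deposited table (-0.33), and against control (-0.35, -0.36 and -0.35). Normexp turned Cxcl3 for IL4 over control to 0.12 with quantile scaling, and Cxcl12 for IL4 + emodin over control to 0.30 with the 75th percentile.

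Without the filter 22743 (IL4 + emodin over IL4), 7321 (IL4 over control) and 19856 (IL4 + emodin over control) genes were called, against 13750, 3659 and 13125, since more genes entered. For IL4 over control spike-in scaling called 2350 and normexp with the 75th percentile 5540; the cause was not tested. The share of calls that were higher was 59.7% for IL4 + emodin over IL4, but 48.7% with quantile scaling, 48.8% with normexp then quantile, 48.6% with the deposited table, 4.2% with spike-in scaling and 75.4% without the filter. For IL4 + emodin over control it was 59.3%, against 47%, 47.8%, 46.8%, 4.95% and 73% in that order. For IL4 over control it was 51.2%, against 69.7% with spike-in scaling and 26.3% without the filter.

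With the array number as a replicate block, Cxcl13 was called lower with IL4 + emodin against IL4 (-0.34; limma adjusted p = 0.015) and against control (-0.26; adjusted p = 0.0479), as was Cxcl5 against control (adjusted p = 0.00977). Same-numbered deviations of numbers 1 to 4 correlated at 0.437, 0.093, 0.309 and 0.396 against IL4, where each number correlated best with itself. Against control they correlated at 0.515, 0.056, 0.337 and 0.375, and number 2 was most like number 1. Because number 2 was low, the numbers were not taken to pair the arrays there, and the labels do not settle it. For IL4 over control the block added the calls of Cxcl1, Cxcl5 and Cxcl12 given above and changed no other chemokine's call. The emodin arrays were part of that fit too, so the pairing of IL4 with control arrays does not by itself justify these calls. The block of slide could not be fitted, because all emodin arrays share a slide of their own.

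Leaving out each array in turn gave Pf4 from -0.12 to 0.26 and Cxcl5 from -0.11 to 0.68 against IL4. For IL4 over control it gave Cxcl3 from -0.47 to 0.20, Cxcl13 from -0.18 to 0.31 and Pf4 from -0.21 to 0.14. For IL4 + emodin over control it gave Pf4 from -0.17 to 0.25 and Cxcl12 from -0.57 to 0.25. Between labelled sexes 7 genes were called with normexp and the 75th percentile, 6 with normexp then quantile, 1 without the filter and 0 to 5 on leaving out arrays. Interactions with labelled sex gave 7 genes (IL4 + emodin over IL4) and 10 (IL4 over control) without the filter, and 0 to 119 and 0 to 5 on leaving out arrays, the 119 without IL4 + emodin number 1.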
